A study of Homo sapiens with 4 samples.

Results

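The genes described are the NF-κB subunits NFKB1, NFKB2, RELA, RELB and REL, together with NFKBIA, NFKBIE, TNFAIP3, BIRC3 and TNF, which NF-κB induces and which act back on the pathway. The 10 genes were taken by name from the deposited gene tables, which list 58051 gene identifiers, and each name matched 1 row in both tables. They were followed in poly(A) RNA of MCF10A cells, a human breast epithelial line that grows without forming tumours. Cells received 50 nM of an siRNA against LMNA, the gene of lamins A and C, or of one against LacZ, a bacterial gene that human cells lack, and were collected at 48 h. There were 2 libraries per group, siLMNA 1 and 2 and siLacZ 1 and 2. Both groups were transfected with RNAiMAX, had their medium changed at 6 h and were grown in medium with horse serum, epidermal growth factor, hydrocortisone, cholera toxin and insulin. All 4 libraries are of this 1 line. No label states whether 2 libraries with the same siRNA are 2 cultures, and the p-values therefore speak only of how far these libraries spread, a spread that may be technical. Whether the siRNA was single or a pool is not given in the sources used here.

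NF-κB is a family of dimeric transcription factors. In resting cells most dimers are held in the cytoplasm by IκB proteins such as IκBα, the product of NFKBIA. Cytokines such as TNF activate the IκB kinase complex, IκB is degraded, and dimers containing RELA or REL enter the nucleus. In a slower, non-canonical route the kinase NIK leads to processing of the NFKB2 product, which pairs with RELB. Among the genes that NF-κB switches on are its own inhibitors and several of its subunits, so that the level of these mRNAs is commonly read beside the activity of the pathway. In breast epithelium the pathway is known for its part in inflammation and cell survival.

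The promoters of several of the genes carry the κB consensus, the DNA element to which NF-κB dimers bind, with G bases at one end and C bases at the other. Windows of 300 bases, 250 before and 50 after each annotated start, were read from RefSeq (GRCh38.p14) for the 8 members found there: NFKB1, NFKB2, RELA, REL, NFKBIA, TNFAIP3, BIRC3 and TNF. The consensus was searched on both strands, and matches that overlap each other were joined. It was found in 7 of the 12 windows of these members and in 11.3% of all 35116 windows. By gene, 6 of the 8 members had a match in at least 1 window, against 13.3% of the 27305 genes with a window. This is not particular to the members. Of the pathway lists described further on, the other IκB-type genes had a match in 4 of 4 genes and the textbook response genes in 18 of 30. Kinases and adaptors had a match in 3 of 25. RELA and TNF had none, which says only that these letters are not in these windows. The 250 bases before the start of 5 members are shown, 3 that rose after LMNA siRNA (TNFAIP3, REL and BIRC3) and 2 that did not pass the test (NFKB1 and NFKBIA). NFKB1 has 2 windows: the 1 with a match is shown, and the other had 0 matches. Capitals mark the matches.
TNFAIP3, chr6:137867009-137867258, plus strand: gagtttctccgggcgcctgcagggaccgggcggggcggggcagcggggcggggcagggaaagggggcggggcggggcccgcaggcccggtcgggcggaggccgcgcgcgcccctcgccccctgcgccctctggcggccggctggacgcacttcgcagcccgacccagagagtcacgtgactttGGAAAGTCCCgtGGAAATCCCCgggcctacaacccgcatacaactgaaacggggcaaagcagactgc
REL, chr2:60881324-60881573, plus strand: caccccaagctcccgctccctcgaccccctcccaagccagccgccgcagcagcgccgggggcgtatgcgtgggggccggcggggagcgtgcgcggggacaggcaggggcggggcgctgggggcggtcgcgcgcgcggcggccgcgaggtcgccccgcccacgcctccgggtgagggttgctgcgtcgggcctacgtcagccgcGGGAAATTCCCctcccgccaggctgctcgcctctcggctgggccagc
BIRC3, chr11:102317234-102317483, plus strand: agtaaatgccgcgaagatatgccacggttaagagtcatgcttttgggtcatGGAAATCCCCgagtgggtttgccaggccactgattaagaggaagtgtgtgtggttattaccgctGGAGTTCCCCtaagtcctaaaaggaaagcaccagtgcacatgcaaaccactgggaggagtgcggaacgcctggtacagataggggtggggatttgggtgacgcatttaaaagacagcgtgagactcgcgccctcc
NFKB1, chr4:102501109-102501358, plus strand: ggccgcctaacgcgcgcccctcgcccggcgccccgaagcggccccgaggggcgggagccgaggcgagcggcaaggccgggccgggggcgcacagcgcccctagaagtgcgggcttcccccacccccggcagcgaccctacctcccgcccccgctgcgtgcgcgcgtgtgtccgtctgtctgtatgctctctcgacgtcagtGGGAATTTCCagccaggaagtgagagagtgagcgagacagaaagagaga
NFKBIA, chr14:35404750-35404999, minus strand: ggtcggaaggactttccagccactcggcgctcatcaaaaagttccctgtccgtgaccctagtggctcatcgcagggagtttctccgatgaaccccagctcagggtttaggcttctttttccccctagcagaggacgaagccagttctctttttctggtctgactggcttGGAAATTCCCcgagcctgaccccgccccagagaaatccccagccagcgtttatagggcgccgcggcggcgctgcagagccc

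TNFAIP3 held 2 matches side by side, with first bases 67 and 55 before the start. BIRC3 held 2 as well, with first bases 199 and 135 before the start. REL had 1 run that holds 2 overlapping matches and begins 47 bases before the start, NFKB1 had 1 match beginning 49 bases before it, and NFKBIA had 1 beginning 81 bases before it. A match is a description of the letters and not evidence of binding. Members whose mRNA rose and members that did not pass the test both carry the element.

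The libraries held 44.5 and 44.2 (in units of 1e6 counts) in siLMNA and 42.8 and 46.2 in siLacZ. LMNA, the siRNA's target, was at 61.1 and 58.1 CPM (counts per 1e6 counts, with libraries scaled by TMM) in siLMNA, against 479.8 and 524.2 CPM in siLacZ, a log2 fold change of -3.07 (SE 0.0768). Over the whole table, 26.5% of the 18540 tested genes rose and 27.8% fell at an adjusted p under 0.05 (edgeR quasi-likelihood test, Benjamini-Hochberg adjustment), 54.3% in either direction, so a call by itself is common in this comparison. Without siLacZ 2, 3182 genes rose and 3121 fell, against 4911 and 5157 with all libraries. All 12 basal mammary epithelial markers examined, among them KRT5, KRT14 and TP63, were expressed in both groups. Their summed level was 45500 and 43100 CPM in siLMNA and 22100 and 23600 CPM in siLacZ, with 9 markers that rose and 2 that fell. The 10 luminal mammary markers summed to 1290 and 1200 CPM in siLMNA and 687 and 679 CPM in siLacZ. Most of this sum was KRT8 (999 and 930 CPM in siLMNA, 433 and 410 CPM in siLacZ), while GATA3, FOXA1, KRT18 and KRT19 did not pass. Of the 7 that were tested 3 rose and 0 fell, and 2 of the 10 (PGR and KIT) had 0 reads. The 8 endothelial markers summed to 15.7 and 15.2 CPM in siLMNA and 11.9 and 12.4 CPM in siLacZ. Of the 4 that were tested 2 rose and 0 fell. Of the 8, 5 were under 1 CPM in every library and EMCN had 0 reads. The part of these markers in the results was not tested. In bulk RNA, fewer cells of a type and less RNA per cell cannot be told apart.

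All 10 genes had enough reads to be tested. After LMNA siRNA, 8 rose, 0 fell and 2 did not pass by edgeR's quasi-likelihood test, where 26.5% of all tested genes rose. The members were chosen with earlier results of these data known, so the contrast with all genes is only a description. The number of members that fell was also 0 at an unadjusted p under 0.05 and with DESeq2. All 10 log2 fold changes were above 0 in both fits, so no threshold could give a fall. The median log2 fold change of the 10 genes was 0.80, against -0.01 over all tested genes. The largest rise was that of TNF, followed by TNFAIP3, REL and RELB, while NFKB1 and NFKBIA were nearly level. For all 10 genes both siLMNA libraries lay above both siLacZ libraries, which was so for 37.3% of all tested genes, while 38.8% had both siLMNA libraries below. With library totals alone in place of TMM, the groups overlapped for NFKB1 and NFKBIA.

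**Figure D1:**
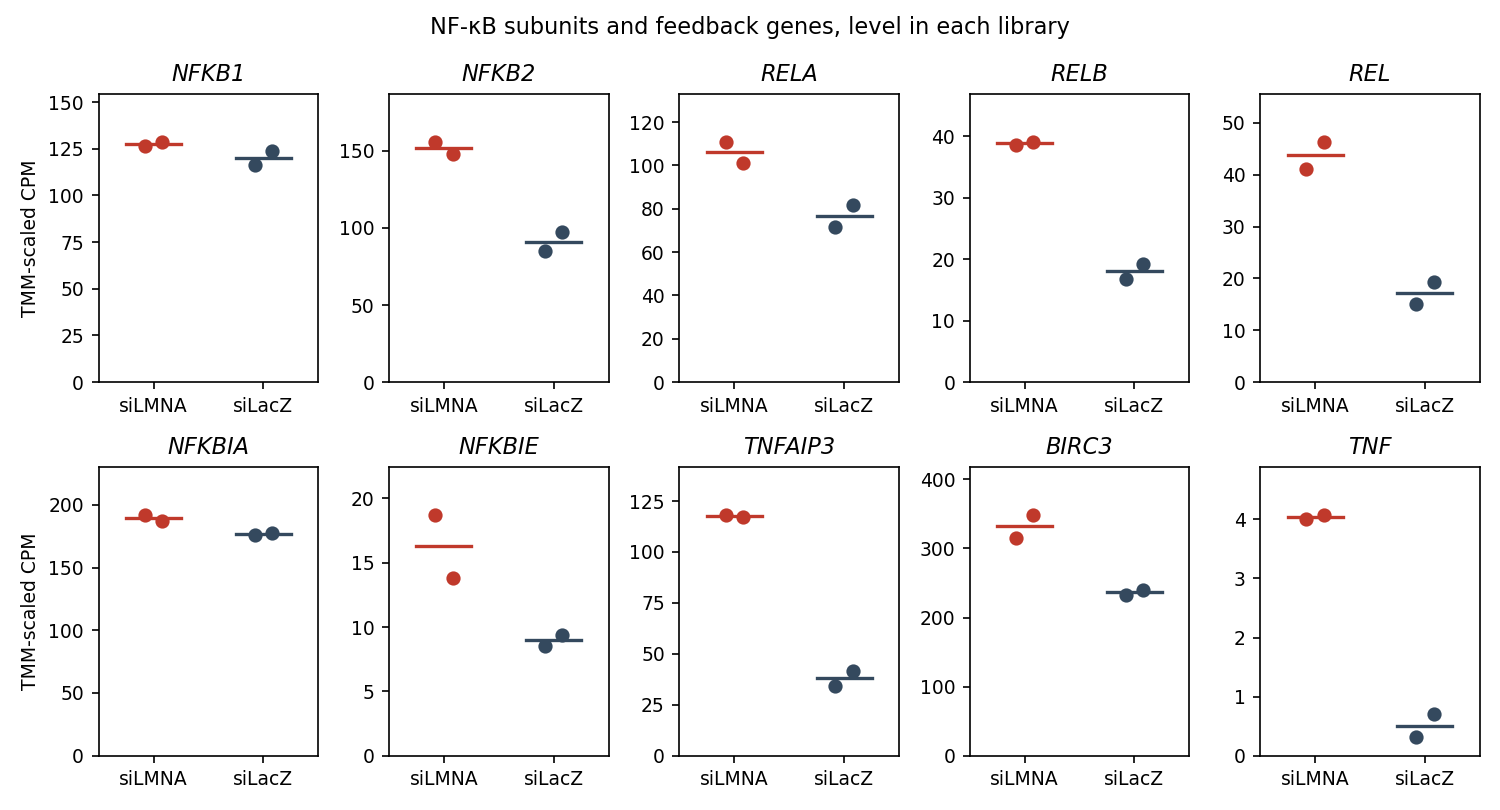
Level of each member in each library, in TMM-scaled CPM on a linear axis that starts at 0. Points are libraries and lines are the group means (n = 2 per group); the groups are nearly level for NFKB1 and NFKBIA, and TNF has the largest relative gap.

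Among the subunits, the responses ranged from nearly level to 2.54-fold. NFKB1 (ENSG00000109320; hg38 chromosome 4, 102501329 to 102617302, plus strand) encodes p105, the precursor of p50. Its level was 126.6 and 128.8 CPM in siLMNA, against 116.5 and 123.8 CPM in siLacZ. The groups are adjacent, and the gap between them is smaller than the gap between the siLacZ libraries. The log2 fold change was 0.09 (SE 0.0699; 95% interval -0.06 to 0.23; edgeR adjusted p = 0.313), an interval from 0.959-fold to 1.18-fold with TMM scaling. With upper-quartile factors the log2 fold change was 0.157 (SE 0.0682). Its sign depends on the scaling: with library totals alone the log2 fold change was -0.01.

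NFKB2 (ENSG00000077150; chromosome 10, 102394110 to 102402529, plus strand) encodes p100, the precursor of p52. It stood at 156.0 and 147.7 CPM in siLMNA, against 84.78 and 97.36 CPM in siLacZ, with both siLMNA libraries well above the controls. It rose 1.67-fold (log2 fold change 0.74, SE 0.078; adjusted p = 3.55e-07). RELB (ENSG00000104856; chromosome 19, 45001430 to 45038198, plus strand), the usual partner of p52, was at 38.53 and 39.11 CPM in siLMNA, against 16.78 and 19.27 CPM in siLacZ. It rose 2.15-fold (log2 fold change 1.11, SE 0.0899; adjusted p = 1.31e-08). For RELB the siLMNA libraries were nearly equal, and the gap between the groups was wider than the gap between the siLacZ libraries.

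RELA (ENSG00000173039; chromosome 11, 65653596 to 65663094, minus strand) encodes p65, the main activating subunit of the canonical route. It was at 111.0 and 101.2 CPM in siLMNA, against 71.74 and 81.73 CPM in siLacZ. It rose 1.38-fold (log2 fold change 0.47, SE 0.0801; adjusted p = 8.71e-05), the smallest of the subunit rises. REL (ENSG00000162924; chromosome 2, 60881521 to 60931610, plus strand), which encodes c-Rel, a subunit best known from lymphocytes, was at 41.10 and 46.37 CPM in siLMNA, against 15.13 and 19.34 CPM in siLacZ. It rose 2.54-fold (log2 fold change 1.34, SE 0.106; adjusted p = 9.43e-09), the largest of the subunit rises. For both genes the groups did not overlap, and the siLMNA libraries were further apart than those of RELB. A long non-coding gene on the opposite strand overlaps exons of RELA in the annotation and has no row in the tables; whether the counting used strand is not given in the sources used here, and without it their reads cannot be told apart.

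Of the 2 inhibitors, NFKBIE rose and NFKBIA did not pass the test. NFKBIE had 0.0975 and 0.074 reads per read of NFKBIA in siLMNA, against 0.0487 and 0.0529 in siLacZ (exact two-sided permutation p = 0.333, the smallest possible). NFKBIA (ENSG00000100906; chromosome 14, 35401511 to 35404749, minus strand) was at 191.8 and 186.8 CPM in siLMNA, against 175.6 and 177.3 CPM in siLacZ. With TMM scaling the groups did not overlap, but the difference was small: the log2 fold change was 0.10 (SE 0.0671; 95% interval -0.04 to 0.24; adjusted p = 0.219). The interval runs from 0.972-fold to 1.18-fold. NFKBIA passed with upper-quartile factors (log2 fold change 0.17; adjusted p = 0.0355), where 9 of the 10 members rose, as did 29.8% of all tested genes, while 24.7% fell (54.4% in either direction). Among the inhibitors the other member, NFKBIE (ENSG00000146232; chromosome 6, 44258166 to 44265788, minus strand), which encodes IκBε, was at 18.70 and 13.82 CPM in siLMNA, against 8.548 and 9.372 CPM in siLacZ. The siLMNA libraries were both higher but far apart. NFKBIE rose 1.81-fold (log2 fold change 0.86, SE 0.135, edgeR adjusted p = 3.64e-05). It no longer passed when siLacZ 1 was left out (1.72-fold) or when siLacZ 2 was (1.93-fold). In those fits the spread within a group is known only from the siLMNA pair. The fold was 1.54 without siLMNA 1 and 2.08 without siLMNA 2.

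TNFAIP3 (ENSG00000118503; chromosome 6, 137867188 to 137883312, plus strand) encodes A20, a ubiquitin-editing enzyme that ends signalling to the IκB kinase complex. It was at 118.1 and 117.0 CPM in siLMNA, against 34.26 and 41.61 CPM in siLacZ. The siLMNA libraries were nearly equal, and both lay far above the controls. TNFAIP3 rose 3.10-fold (log2 fold change 1.63, SE 0.0868; 95% interval 1.45 to 1.81; adjusted p = 5.71e-11), a log2 fold change above that of 93.6% of tested genes. The antisense gene AL357060.1 overlaps it, with 73 and 42 reads in siLMNA and 57 and 42 in siLacZ, against 5046 and 5029 reads of TNFAIP3 in siLMNA and 1531 and 1967 in siLacZ.

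BIRC3 (ENSG00000023445; chromosome 11, 102317450 to 102339403, plus strand) encodes cIAP2, a ubiquitin ligase at TNF receptors. It had the most reads of the 10 genes, at 315.8 and 348.3 CPM in siLMNA, against 232.7 and 239.9 CPM in siLacZ. It rose 1.41-fold (log2 fold change 0.49, SE 0.0705; adjusted p = 1.31e-05). The groups were clearly apart, although the rise was small beside that of TNFAIP3.

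TNF (ENSG00000232810; chromosome 6, 31575567 to 31578336, plus strand), the cytokine itself, had 171 and 175 reads in siLMNA, against 14 and 33 reads in siLacZ, or 4.00 and 4.07 CPM against 0.313 and 0.698 CPM. It was the least abundant member in every library, and the siLMNA libraries were nearly equal while the controls differed. TNF rose 7.89-fold (log2 fold change 2.98, SE 0.304; 95% interval of the fold 5.05 to 12.3; adjusted p = 2.25e-07), above 98.1% of tested genes. The size rests on the control libraries: the fold was 5.71 without siLacZ 1 and 13.0 without siLacZ 2. Macrophages are a common source of TNF, so leukocyte markers were read beside it. Of 14 such markers, 12 were under 1 CPM in every library, and FCGR3A, CD3E, MS4A1 and TYROBP were among those with 0 reads. Their summed level was 62.6 and 56.0 CPM in siLMNA and 45.2 and 48.9 CPM in siLacZ, nearly all of it from CD14 and CSF1R, which both rose (log2 fold changes 0.28 and 0.40). PTPRC, which all leukocytes express, was at 0 and 0.0233 CPM in siLMNA and at 0 in both siLacZ libraries.

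**Figure D2:**
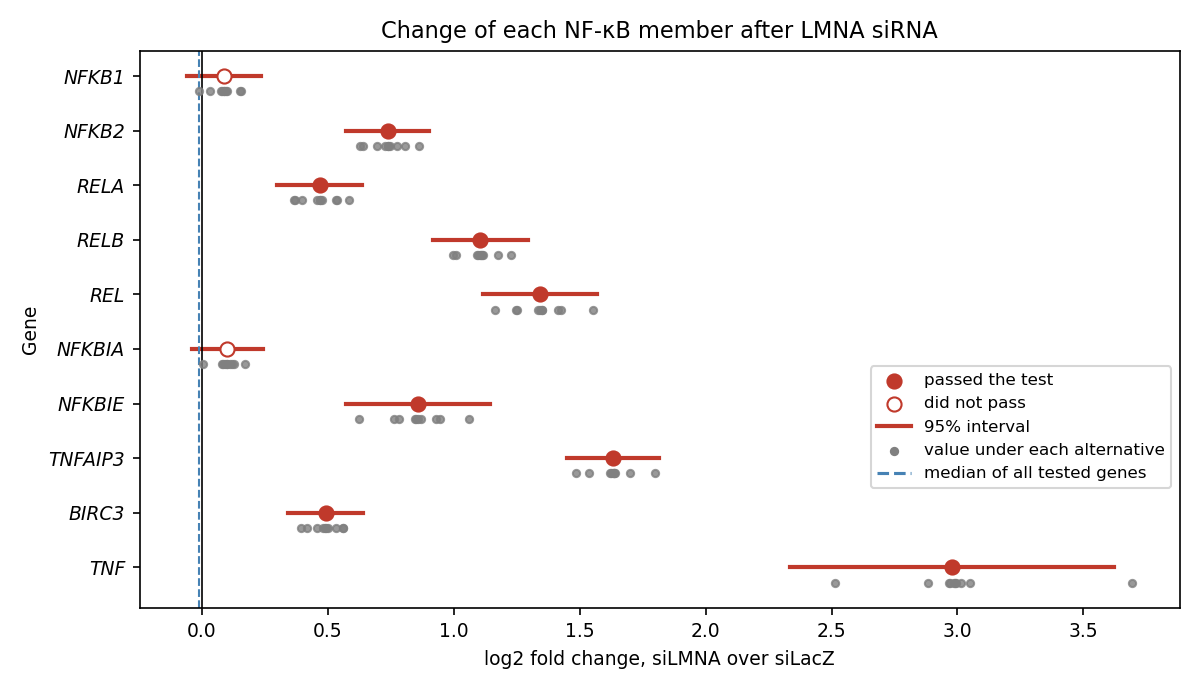
Log2 fold change of each member, siLMNA over siLacZ, with its 95% interval (bar) from edgeR; small grey points below it are the values under the 10 alternatives, and the dashed line is the median of all tested genes. Filled points passed at an adjusted p under 0.05 and open ones did not; NFKB1 and NFKBIA lie at 0.09 and 0.10 and TNF at 2.98.

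When the test asked for a change beyond 1.5-fold, 6 of the 10 genes passed, all upward, where 11.4% of all tested genes rose and 9.36% fell (20.7% in either direction). RELA and BIRC3 were the calls lost (adjusted p = 1.00 for both). In the authors' own deposited tables, which compare 1 library with 1, no member passed: the smallest deposited p-values of TNF and TNFAIP3 were 0.00866 and 0.0371, and their adjusted p-values were 0.998. The authors' deposited log2 fold changes in pair 1 and pair 2 were 3.67 and 2.49 for TNF, 1.78 and 1.44 for TNFAIP3, and 1.13 and 0.50 for NFKBIE.

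The share of each subunit in the summed subunit mRNA is given as a description, with no test. Per kilobase of exon, the summed level of the 5 subunit mRNAs was 91.14 and 88.44 CPM per kilobase in siLMNA, against 57.34 and 64.28 in siLacZ. NFKB1 made up 22.2% and 23.3% of that sum in siLMNA, against 32.5% and 30.8% in siLacZ. RELB made up 13.9% and 14.6% in siLMNA, against 9.64% and 9.88% in siLacZ, and REL 3.42% and 3.98%, against 2.00% and 2.28%. The share of NFKB2 was 38.2% and 37.2% in siLMNA and 33.0% and 33.8% in siLacZ. RELA held a similar share throughout, 22.3% and 20.9% in siLMNA and 22.9% and 23.3% in siLacZ. The shares depend on the length used. With the principal transcript length, chosen after seeing the data, RELA held 28.8% and 27.2% in siLMNA and 29.2% and 29.6% in siLacZ. With that length NFKB1 (31.3%) was above NFKB2 (30.0%) in siLacZ 1. The 5 shares add up to the whole in each library and so are not independent of each other. The groups did not overlap in any of them, which with 2 libraries a group is common: in level, 37.3% of all tested genes had both siLMNA libraries above and 38.8% had both below.

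**Figure D3:**
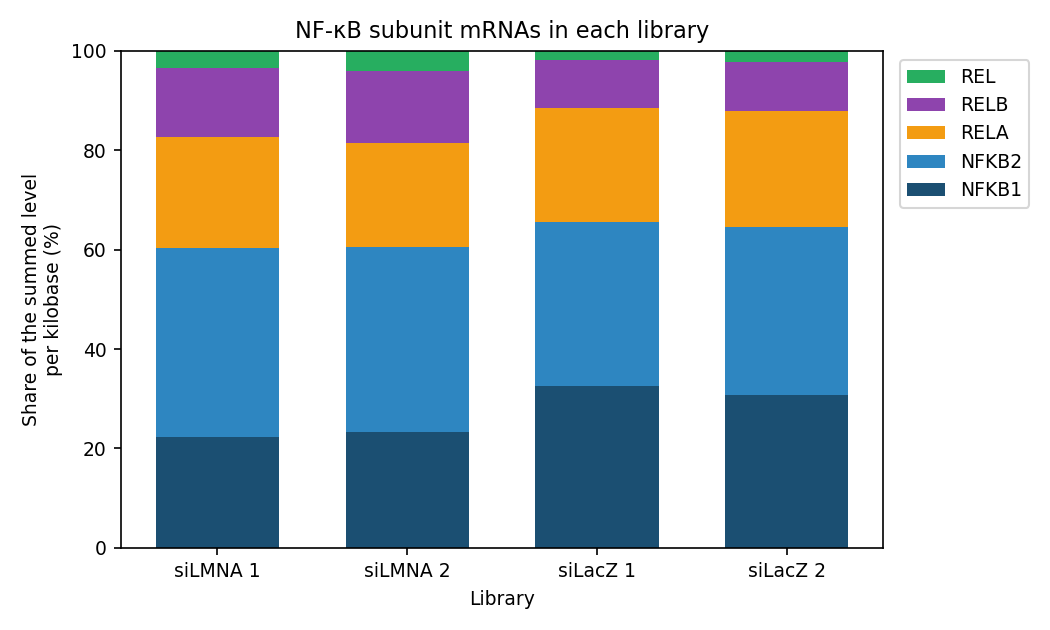
Share of each NF-κB subunit mRNA in their summed level per kilobase of exon, in percent of the 5 subunits, with 1 stacked bar for each siLMNA and siLacZ library; NFKB1 takes 22.2% and 23.3% in siLMNA and 32.5% and 30.8% in siLacZ.

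Ratios of 2 genes within a library do not depend on how libraries are scaled to each other. NFKB2 had 1.23 and 1.15 reads per read of NFKB1 in siLMNA, against 0.728 and 0.786 in siLacZ, so that the order of the pair in reads turned round. RELB had 0.347 and 0.387 reads per read of RELA in siLMNA, against 0.234 and 0.236 in siLacZ. TNFAIP3 had 0.616 and 0.627 reads per read of NFKBIA in siLMNA, against 0.195 and 0.235 in siLacZ, so that the ratio was 2.90-fold higher in siLMNA. NFKBIA had 1.73 and 1.85 reads per read of RELA in siLMNA, against 2.45 and 2.17 in siLacZ. The groups did not overlap in any of these ratios, as was so in level for 37.3% (siLMNA above) and 38.8% (siLMNA below) of all tested genes. Each ratio has an exact two-sided permutation p of 0.333, the smallest that 2 libraries against 2 can give.

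Ordered by level per kilobase of exon, NFKBIA was the most abundant member in both groups (79.75 ± 1.49 in siLMNA and 74.35 ± 0.502 in siLacZ; SD, n = 2 per group), followed by BIRC3 (44.17 ± 3.06 in siLMNA and 31.43 ± 0.674 in siLacZ) and NFKB2 (33.86 ± 1.31 in siLMNA and 20.31 ± 1.98 in siLacZ). The lowest were REL (3.32 ± 0.283 in siLMNA and 1.31 ± 0.226 in siLacZ) and TNF (2.41 ± 0.0292 in siLMNA and 0.302 ± 0.162 in siLacZ). In siLMNA, NFKB1 (20.41 ± 0.246) and RELA (19.42 ± 1.27) did not differ beyond their spread by this length, and in siLacZ neither did NFKB2 and NFKB1 (19.21 ± 0.829). TNFAIP3 stood at 23.28 ± 0.154 in siLMNA, above NFKB1 and RELA, against 7.51 ± 1.03 in siLacZ, below both. With the length of the principal transcript in place of all exons, a choice made after seeing the data, TNFAIP3 (24.83) stayed below NFKB1 (31.26) and RELA (39.29) in siLMNA, so its place in the order depends on the length used. The same holds for NFKB1 and RELA in siLMNA, where with this length RELA (39.29 ± 2.56) was above NFKB1 (31.26 ± 0.377) beyond their spread.

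The other genes of the pathway were read from 6 lists. Like the members, the lists were chosen with earlier results of these data known, so their counts beside all genes are only a description. The lists held 121 different genes, of which 109 had enough reads to be tested. Of these, 63 rose, 19 fell and 27 did not pass, where 26.5% of all tested genes rose and 27.8% fell, and their median log2 fold change was 0.43, beside -0.01 over all tested genes; without siLacZ 2, 50 rose and 11 fell. Of the 4 other IκB-type genes, 2 rose and 2 did not pass. BCL3, a nuclear IκB protein that binds p50 and p52, was at 76.69 and 72.41 CPM in siLMNA, against 27.48 and 32.94 CPM in siLacZ (log2 fold change 1.30, SE 0.0877). NFKBIZ, another nuclear IκB, rose with a log2 fold change of 0.90 (SE 0.0921).

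Genes of the IκB kinase complex, its upstream kinases and its adaptors were called in both directions, as were all tested genes (26.5% rose and 27.8% fell). Among the 28 that were tested there were 12 rises and 8 falls, the falls at a share near that of all genes, 8 missed the threshold, and the median log2 fold change was -0.06. TRAF1, MYD88 and IRAK2, which relay signals from TNF, interleukin-1 and Toll-like receptors, rose with log2 fold changes of 1.77, 0.85 and 0.89, and TAB3, a partner of the kinase TAK1, with 0.53. TRAF1 had 259 and 249 reads in siLMNA, against 105 and 54 in siLacZ, and its log2 fold change was 2.36 without siLacZ 1 and 1.35 without siLacZ 2. MAP3K14, which encodes NIK, fell (8.66 and 8.12 CPM in siLMNA, against 11.37 and 12.40 CPM in siLacZ, log2 fold change -0.50, SE 0.119). The call on MAP3K14 was lost without siLacZ 2 (log2 fold change -0.42), where the spread within a group is known only from the siLMNA pair. RBCK1, of the linear ubiquitin ligase, TAB2, another partner of TAK1, and BCL10, an adaptor of antigen receptor signalling, fell by 0.45, by 0.41 and by 0.41 on the log2 scale.

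Negative regulators were split, with 7 of 14 genes up, 6 down and 1 that missed the threshold, and a median log2 fold change of 0.14. Beside them, 26.5% of all tested genes rose and 27.8% fell. The A20-binding proteins went separate ways: TNIP1 was at 516.6 and 512.5 CPM in siLMNA, against 262.2 and 297.3 CPM in siLacZ (log2 fold change 0.88, SE 0.0725), and TNIP3 rose with 1.15 (SE 0.174). TNIP2 was at 23.64 and 21.97 CPM in siLMNA, against 42.18 and 41.74 CPM in siLacZ (log2 fold change -0.88, SE 0.0822). ZC3H12A, an RNase that degrades cytokine mRNAs, rose with 1.09 (SE 0.0753) and SOCS1, a suppressor of cytokine signalling, with 1.56 (SE 0.278). OTULIN, which removes linear ubiquitin chains, PDLIM2, a ligase for RELA, and TRAFD1, a negative regulator of innate signalling, fell by 0.80, by 0.81 and by 0.70 on the log2 scale.

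Among 24 tested receptors and ligands, 13 rises stood beside 3 falls and 8 genes that missed the threshold, and the median log2 fold change was 0.64. Over all tested genes, 26.5% rose and 27.8% fell. IL1R1, the interleukin-1 receptor, was at 109.3 and 113.1 CPM in siLMNA, against 27.12 and 27.80 CPM in siLacZ (log2 fold change 2.02, SE 0.0749). TLR2, a receptor for bacterial lipoproteins, rose with a log2 fold change of 1.96 (SE 0.159), and the ligand TNFSF15 with 1.46 (SE 0.108). TLR3, a receptor for double-stranded RNA, and TNFRSF11A, which encodes RANK, fell with -0.64 (SE 0.104) and -0.58 (SE 0.132). The call on TNFRSF11A was lost without siLacZ 2 (log2 fold change -0.45), where the spread within a group is known only from the siLMNA pair.

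Response genes, the textbook targets of NF-κB, had the highest median of the 6 lists, 1.65 on the log2 scale. Of the 36 tested genes 29 rose, 1 fell and 6 missed the threshold, where 26.5% of all tested genes rose and 27.8% fell. MMP9, a matrix metalloproteinase, was at 127.6 and 120.2 CPM in siLMNA, against 2.01 and 1.52 CPM in siLacZ (log2 fold change 6.13, SE 0.115). CSF2, the cytokine GM-CSF, was at 4.59 and 3.86 CPM in siLMNA, against 0.224 and 0.254 CPM in siLacZ (log2 fold change 4.13, SE 0.304). PLAU, the urokinase plasminogen activator, and PTGS2, the inducible prostaglandin synthase, rose with 3.94 (SE 0.0799) and 3.73 (SE 0.106). PTX3, a secreted pattern recognition protein, was the one that fell (log2 fold change -1.10, SE 0.206). IL6, an inflammatory cytokine, had 328 and 360 reads in siLMNA and 0 in both siLacZ libraries, at least 246-fold higher when set against 3 counts over the siLacZ group; with IL6 at this bound the median of the list was also 1.65. In the same libraries 10 fibroblast markers had a summed level of 1050 and 1100 CPM in siLMNA and 204 and 210 CPM in siLacZ. Nearly all of it came from DCN (629 and 639 CPM in siLMNA, 160 and 163 CPM in siLacZ), FAP and COL1A1. Of the 6 markers that were tested 5 rose and 0 fell, and PDGFRB did not pass. Of the 10, 6 were under 1 CPM in every library and COL3A1 had 0 reads. Their part in these results was not tested.

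**Figure D4:**
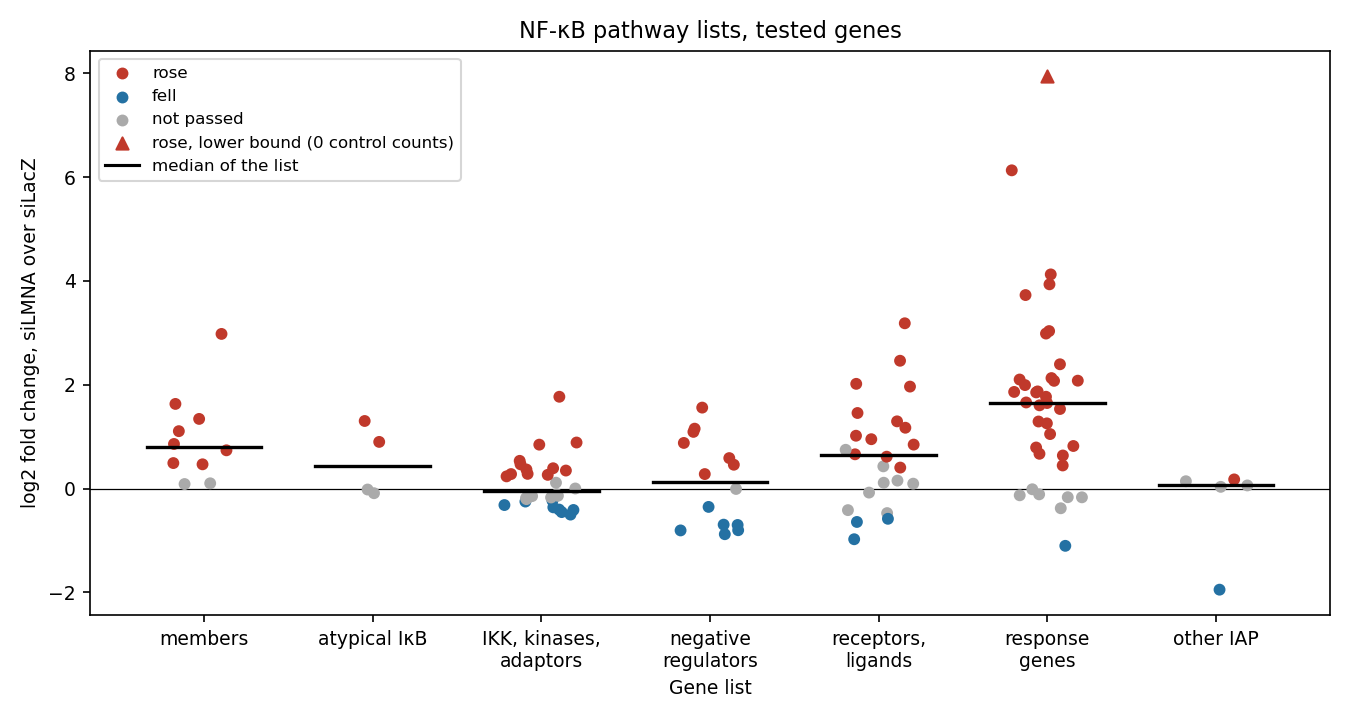
Log2 fold change, siLMNA over siLacZ, of each tested gene of the 10 members and of the 6 pathway lists; points are genes, coloured by the edgeR call, and lines are list medians. The triangle is the lower bound of IL6; the medians are 0.80 for the members, -0.06 for the kinases and adaptors and 1.65 for the response genes.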

How the data were processed

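Poly(A) RNA of 4 MCF10A libraries was read from 2 tables, each holding 1 siLMNA and 1 siLacZ library. The deposited raw counts per gene were used for all tests. The deposited normalized values are a signal, each count times 1 factor per library, and served to check rows. The authors' deposited scores (standard error and statistic) were not tested. The authors' log2 fold changes and p-values, per the file headers, come from 1 library against 1. Per the submitters' processing notes the build was hg38. The alignment and counting tools, gene models and strand setting were not given in the sources used here. In 6 genes (CDH1, TWIST1, ZEB1, OCLN, CLDN1 and CCNB1) the deposited count and normalized value did not share the library's factor (relative tolerance 1e-06). This was so for 6 genes in siLMNA 1, 5 in siLMNA 2 and 0 in either siLacZ library, and 1 of the identifiers has 2 rows in 1 table. The cause is not known here. These genes, none of them a member or on a list, were left out. Columns without a name (3) were not used.

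All 4 libraries entered 1 fit in edgeR 4.0.16 under R 4.3.3 (quasi-likelihood test, TMM factors, filterByExpr) with a single term for the siRNA. P-values were adjusted by Benjamini-Hochberg over 18540 genes and read at 0.05. The procedure was tested on simulated data in which few genes changed, evenly up and down. In these data 54.3% of tested genes were called, so the simulation does not test the scaling or the error rate in this setting. The 10 alternatives were DESeq2 1.42.0, upper-quartile factors, library totals alone, no low-count filter, a minimum change of 1.5-fold, a replicate block and each library left out; principal transcript length was added after seeing the data. SE is the log2 fold change over the square root of F. Counts of the 2 libraries of a group lay further apart than counting alone gives, at 7.04 (siLMNA) and 9.29 (siLacZ) chi-square units for each degree of freedom. A limit of 3 counts is 0.0649 to 0.0701 CPM, and covers counting error only. Lengths and positions are from GENCODE 29 on the same build. From each list, up to 4 genes per direction are named: those with the largest change among genes that passed, had a mean of at least 1 CPM and moved the same way in both same-numbered pairs. The members and lists were chosen with earlier results of these data known.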

Additional observations from a re-analysis of the deposited data

How the results depend on the processing

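Over 10 alternatives and 42 named genes, 394 of 420 values kept their direction and their side of the threshold. Another 24 kept their direction but no longer passed, 1 passed newly (NFKBIA with upper-quartile factors, 0.17) and 1 changed sign (NFKB1 with library totals alone, -0.01). The named list genes had been picked because they passed the main test with the largest changes of their list. Part of this stability therefore comes from that choice, and it does not describe genes in general. Of the 24, 12 came from the minimum change of 1.5-fold, whose construction asks for larger changes, and 9 in all were of XIAP. Under that minimum, 2111 of all genes rose and 1735 fell, and of the list genes 41 rose and 4 fell. Leaving out 1 library gave 3182 to 4283 genes that rose and 3121 to 4696 that fell, 7 to 8 members that rose, and 50 to 57 list genes that rose and 11 to 17 that fell; the lowest counts were those without siLacZ 2, except that 7 members rose without siLacZ 1 as well. These fits have fewer samples, and the lone library of a group is assumed to vary like the other group. A call lost without a siLacZ library is therefore not read as resting on that library. The median log2 fold change of all genes was -0.11 with library totals alone and 0.06 with upper-quartile factors. With the replicate number as a replicate block, 8 members rose and 0 fell, as did 4870 and 5093 of all genes and 62 and 19 list genes. The deviations of same-numbered libraries from their group means had a correlation of -0.0813 over 13932 genes. With 2 libraries a group these deviations mirror each other, so the value cannot show whether same-numbered libraries share a culture or batch. The block rests on the number alone. With principal transcript lengths, 14 of 20 levels per kilobase moved by more than the replicate SD. Depth limits genes with few control reads, such as TNF with 14 and 33.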

Other observations

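LTA, LTB and TNF lie side by side in the major histocompatibility complex, and their mRNAs differed in level. LTB was at 2.32 and 2.40 CPM in siLMNA, against 1.07 and 0.846 CPM in siLacZ, and rose (log2 fold change 1.30, SE 0.279; edgeR adjusted p = 7.73e-04). LTA had 0 reads in both siLMNA libraries and 2 and 0 reads in siLacZ, too few to test. CD40LG, another ligand of the TNF family, had 0 reads in every library, and of the response genes the endothelial adhesion receptors VCAM1 and SELE had 0 reads throughout.

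BIRC3 belongs to the inhibitor of apoptosis family. Of its 5 other tested members 1 rose, 1 fell and 3 did not pass, where 26.5% of all tested genes rose and 27.8% fell. XIAP, a caspase inhibitor, was at 80.50 and 85.49 CPM in siLMNA, against 73.33 and 73.58 CPM in siLacZ (log2 fold change 0.18, SE 0.0716; edgeR adjusted p = 0.0467), and passed in 1 of 10 alternatives. BIRC5, which encodes survivin and acts in mitosis, was at 16.81 and 18.43 CPM in siLMNA, against 64.62 and 71.44 CPM in siLacZ (log2 fold change -1.95, SE 0.0861). BIRC2, which encodes cIAP1, was at 71.23 and 74.97 CPM in siLMNA, against 69.52 and 63.13 CPM in siLacZ, and did not pass.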
